A study of Homo sapiens with 4 samples.

Results

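The 10 genes described here encode the AP-1 and EGR immediate early transcription factors: FOS, FOSB, FOSL1 and FOSL2, JUN, JUNB and JUND, and EGR1, EGR2 and EGR3. They were taken by symbol from a table of 26364 gene symbols, and all 10 passed the filter on low counts, as did 15599 symbols in all. The cells were Ishikawa cells, a human endometrial adenocarcinoma line, with the Y537S mutation in ESR1, the estrogen receptor alpha gene, a change in the ligand-binding domain known to make the receptor active without hormone. After culture in medium stripped of steroid hormones, 1 group of 2 libraries received vehicle (0.1% DMSO) and the other group of 2 received 10 nM estradiol (E2), both for 8 h. Each group held 1 library of each of 2 mutant clones, so every library carried the mutation, and libraries with the unmutated receptor were not analysed here. The count columns bear the tags A4 and B212, which no label links to the clone numbers, and each library is called here by its treatment and its tag.

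AP-1 is a dimer of leucine zipper proteins. FOS proteins pair only with other families, mainly with JUN proteins, whereas JUN proteins also pair among themselves, and the dimers bind short palindromic sites in promoters and enhancers. EGR proteins are zinc finger factors that bind GC-rich sites and are restrained by the NAB corepressors. Growth factor signalling through the MAP kinases switches on FOS and EGR1 within minutes by way of serum response factor and ternary complex factors, and most of these transcripts are unstable and fall again soon after. In the endometrium, estrogen is known to induce several of these genes early, and AP-1 is a tether through which the estrogen receptor can act on genes without an estrogen response element.

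Promoter sequence from RefSeq (GRCh38.p14), 250 bases before to 50 after a gene's start, was found for 8 of the 10 genes, all but FOSL1 and EGR3, in 10 windows, 3 of them of EGR2. Parts of 2 of them are shown, that of JUN because it was the AP-1 gene called for E2 and that of EGR1, chosen after its values were seen, because it had the smallest p-value between the tags. The JUN stretch lies at chr1:58784096-58784125 on the minus strand, and its capitals mark a variant AP-1 site (TGACATCA), known as a site through which JUN protein acts on its own gene. The EGR1 stretch, at chr5:138465329-138465478 on the plus strand, has in capitals the CArG boxes, the sites of serum response factor, and the short form of the cAMP response element (TGACGT, or ACGTCA on the other strand).
JUN: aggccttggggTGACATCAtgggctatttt
EGR1: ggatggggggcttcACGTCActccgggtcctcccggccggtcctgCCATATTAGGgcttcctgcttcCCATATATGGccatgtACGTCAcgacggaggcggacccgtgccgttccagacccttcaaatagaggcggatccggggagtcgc

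The variant AP-1 site began 67 bases before the JUN start. It was found in no other of the matched genes, and in 2.61% of all 35116 promoter windows. The CArG boxes of EGR1 began 105 and 83 bases before its start. EGR2 had a CArG box too, and 1.29% of all windows held one. Searched on both strands, the short form TGACGT occurred in 6 of the 10 member windows and in 7.98% of all windows. Those windows belonged to 6 of the 8 matched genes (FOS, FOSB, FOSL2, JUND, EGR1 and EGR2). The full cAMP response element TGACGTCA, which contains the short form, was found in JUND (1.85% of all windows), and the common AP-1 site TGAGTCA in FOSL2 (4.95%). The EGR sites GCGTGGGCG and GCGGGGGCG (0.795% and 5.07% of all windows) and the estrogen response element GGTCANNNTGACC (0.057%) had no match in the member windows. FOSL1 and EGR3 had no window among these. A match describes letters only and was not tested as a site.

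The libraries held 71575816 to 85222856 counts. The epithelial markers EPCAM, CDH1, KRT8 and KRT18 stood at 373.5 to 830.1 CPM (counts divided by the library total, adjusted by TMM factors). PAX8 and SOX17 stood at 35.3 to 314.8 CPM, KRT19 at 74.4 to 155.7, KRT7 at 7.23 to 9.11 and MUC1 at 2.27 to 4.22. Among markers of other cell types, CD3E and PECAM1 had 0 counts in all 4 libraries, PTPRC 25 to 37 and DCN at most 1. VWF had 2.04 to 4.36 CPM, CD68 1.26 to 2.06 CPM and COL1A1 2531 to 9363 counts. ESR1 had 86.5 to 109.9 CPM, and the counts do not show the mutation itself. The 4 libraries split by tag before treatment, and the coefficient of biological variation was 32.2% when tag differences counted as noise and 5.99% with the tag as a block.

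Set per kilobase of transcript, so that genes can be compared, JUN proteins' transcripts made up nearly all of the summed level of the 7 FOS and JUN genes. Other AP-1 and bZIP partners were left out of this sum. JUND, a constitutive member of the family, had 33.9 (DMSO, A4), 33.0 (E2, A4), 51.4 (DMSO, B212) and 53.4 (E2, B212) CPM per kb, above every other member in every library. JUNB followed with 9.65 to 14.6 and JUN with 5.98 to 8.31 CPM per kb, and these ranges did not overlap. EGR1 reached 3.83 to 4.8 CPM per kb in A4, below JUN, and 13.0 to 14.1 in B212, above JUNB in both libraries of that tag. FOSL2 (0.790 to 1.05 CPM per kb), FOS (0.542 to 0.912), FOSL1 (0.180 to 1.12) and EGR3 (0.293 to 0.944) overlapped in their ranges. EGR2 was the lowest in every library (0.0690 to 0.103 CPM per kb, 15 to 25 counts). Next came FOSB in A4 (0.195 and 0.116 CPM per kb in DMSO and E2) and FOSL1 in B212 (0.218 and 0.180), where FOSB stood at 0.273 and 0.286.

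**Figure D1:**
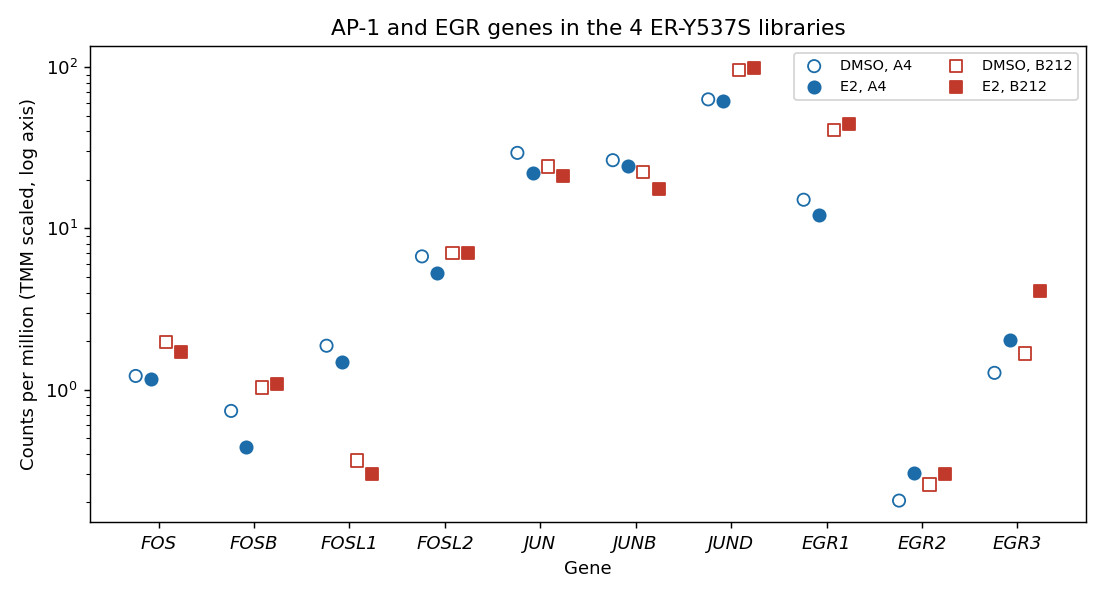
Levels of the 10 genes in CPM on a log axis, with 1 point per library (circles A4, squares B212, open DMSO, filled E2). EGR3 is higher with E2 in both tags, while EGR1, JUND and FOSL1 are set apart mainly by tag.

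As shares of the summed level per kb of the 7 AP-1 genes, the 3 JUN genes took 95.2% (DMSO) and 95.7% (E2) in A4 and 96.6% (DMSO) and 96.8% (E2) in B212. JUND alone took 56.8% and 60.1% of the pool in A4 and 70.4% and 74.9% in B212. The FOSL1 share was 1.88% and 1.62% in A4 against 0.298% and 0.252% in B212. The make-up thus differed more between the tags than between the treatments of a tag. These are transcript shares, and protein was not measured.

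**Figure D2:**
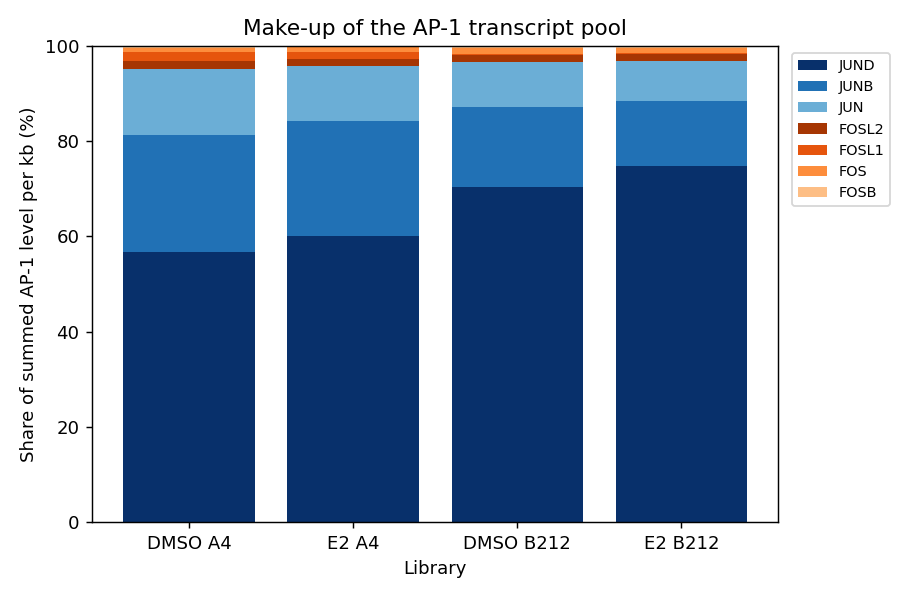
Stacked shares (percent) of the 7 AP-1 genes in their summed level per kilobase, 1 bar per library. JUND fills 56.8% to 74.9% of each bar, and the 4 FOS genes together stay under 5%.

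The first comparison asked how E2 changed these genes in cells with the mutant receptor. EGR3 was the member with the largest difference. The A4 libraries held 1.27 CPM (93 counts) without and 2.04 CPM (167 counts) with E2, and the B212 libraries 1.67 CPM (143 counts) and 4.09 CPM (300 counts). The means were 1.47 ± 0.29 CPM for DMSO and 3.06 ± 1.45 CPM for E2 (SD, n = 2). Both E2 libraries lay above both DMSO libraries. JUN moved the other way, and JUNB, FOSL1, FOSL2 and FOS were lower with E2 in both tags without passing the test. JUND, EGR1 and FOSB had no common direction.

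At an adjusted p under 0.05, 0 of the 10 genes and 0% of the 15599 genes were called with no block by edgeR's quasi-likelihood test. The unadjusted p was under 0.05 for 0 members and 150 genes, and DESeq2 called 1 gene, RPSAP58, and 0 members. With the tag as a block, which pairs the DMSO and E2 libraries of a tag, 2 members were called, EGR3 higher and JUN lower. The background in that fit was 9.56% of all genes, 6.13% higher and 3.44% lower. With 10 members, a count of 2 is close to that background. The block left 1 residual degree of freedom per gene, so the spread rested on values borrowed across genes, and the p-values speak of these 2 clones.

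EGR3 rose 2.02-fold with the block, a log2 fold change of 1.02 ± 0.18 (SE) with an edgeR adjusted p of 0.00241. With no block the log2 fold change was 1.06 ± 0.45, with an adjusted p of 0.9999. EGR3 is a known early estrogen target that acts in growth and differentiation programmes. Within the tags the log2 ratio of scaled counts was 0.68 in A4 (95% interval from 0.31 to 1.06) and 1.29 in B212 (1.00 to 1.59). These intervals, from the exact binomial distribution of the paired counts, cover counting error only. Whether the response was larger in B212 was not tested, there being a single library of each tag and treatment. The call held in edgeR with the block under both other scalings, both other count filters and limma-voom, and with a trend in GC content and transcript length taken out (log2 fold change 1.10, adjusted p 0.00467). DESeq2 with the block gave EGR3 no adjusted p, and 0.0493 when its independent filtering was turned off.

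EGR1, the best known member of the family, took the bulk of the EGR level per kb but did not move in a common direction. The A4 libraries held 15.1 CPM (DMSO) and 12.0 CPM (E2), and those of B212 held 40.9 and 44.1 CPM. The log2 ratio was -0.32 (counting interval -0.45 to -0.20) in A4 and 0.11 (0.041 to 0.18) in B212. The fitted log2 fold change was 0.0046 ± 0.79 with no block and -0.089 ± 0.095 with it, so its sign depended on the fit (edgeR adjusted p 0.605 with the block). As a share of the EGR level per kb, EGR3 held 5.67% without and 10.7% with E2 in A4, and 2.86% and 6.25% in B212, a description with 1 library each.

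EGR2, which drives myelination in Schwann cells, was near the limit of detection. It had 15 (DMSO) and 25 (E2) counts in A4 and 22 counts in each B212 library, or 0.205, 0.305, 0.258 and 0.300 CPM. The E2 values lay above the DMSO values, yet the log2 fold change with the block was 0.38 ± 0.40 (edgeR adjusted p 0.587), and the counting intervals ran from -0.41 to 1.60 in A4 and from -0.70 to 1.14 in B212. A change of EGR2 was not detectable at this depth.

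JUN, the founding AP-1 subunit, was the member called lower. Its level was 29.4 CPM in DMSO and 22.2 CPM in E2 in A4, and 24.2 and 21.2 CPM in B212, so that the treatments did not overlap. The means were 26.8 ± 3.70 CPM and 21.7 ± 0.73 CPM (SD, n = 2). With the block JUN fell 1.23-fold, a log2 fold change of -0.30 ± 0.086 (SE) with an edgeR adjusted p of 0.0340, and with no block it was -0.31 ± 0.17 (adjusted p 0.9999). The call was lost with DESeq2 size factors in edgeR (adjusted p 0.0592), with DESeq2 (0.103) and with the GC and length trend taken out (-0.21, adjusted p 0.106).

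JUNB, which often restrains JUN, had 26.5 (DMSO) and 24.2 (E2) CPM in A4, and 22.4 and 17.6 CPM in B212. It was lower with E2 in each tag, but the E2 library of A4 lay above the DMSO library of B212. Its log2 fold change with the block was -0.24 ± 0.088, with an edgeR adjusted p of 0.0878. JUND had 63.2 and 61.5 CPM in A4 and 95.8 and 99.4 CPM in B212, a log2 fold change of 0.0088 ± 0.070 with the block. The log2 ratios within the tags were -0.038 and 0.054.

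None of the FOS genes passed the test in either fit. FOS, the prototype of immediate early genes, had 89 and 96 counts (1.22 and 1.17 CPM) in A4 and 168 and 126 counts (1.97 and 1.72 CPM) in B212. Its log2 fold change with the block was -0.13 ± 0.19 (edgeR adjusted p 0.721). FOSB had 54 and 36 counts (0.737 and 0.439 CPM) in A4 and 88 and 79 counts (1.03 and 1.08 CPM) in B212. FOSB makes a full-length and a truncated protein from 1 gene, and counts per gene do not separate them. The log2 ratio of FOSB was -0.75 in A4 (counting interval -1.40 to -0.11) and 0.064 in B212 (-0.39 to 0.52), with -0.28 ± 0.27 in the blocked fit (edgeR adjusted p 0.560).

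FOSL1 and FOSL2 lack the strong activation domain of FOS and tend to be longer lived. FOSL1 had 137 and 122 counts (1.87 and 1.49 CPM) in A4 and 31 and 22 counts (0.363 and 0.300 CPM) in B212. Its log2 fold change with the block was -0.31 ± 0.24 (edgeR adjusted p 0.452). FOSL2 had 6.70 and 5.30 CPM in A4 and 7.05 and 7.01 CPM in B212, with -0.17 ± 0.12 in the blocked fit (edgeR adjusted p 0.406). The treatments overlapped for every FOS gene.

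**Figure D3:**
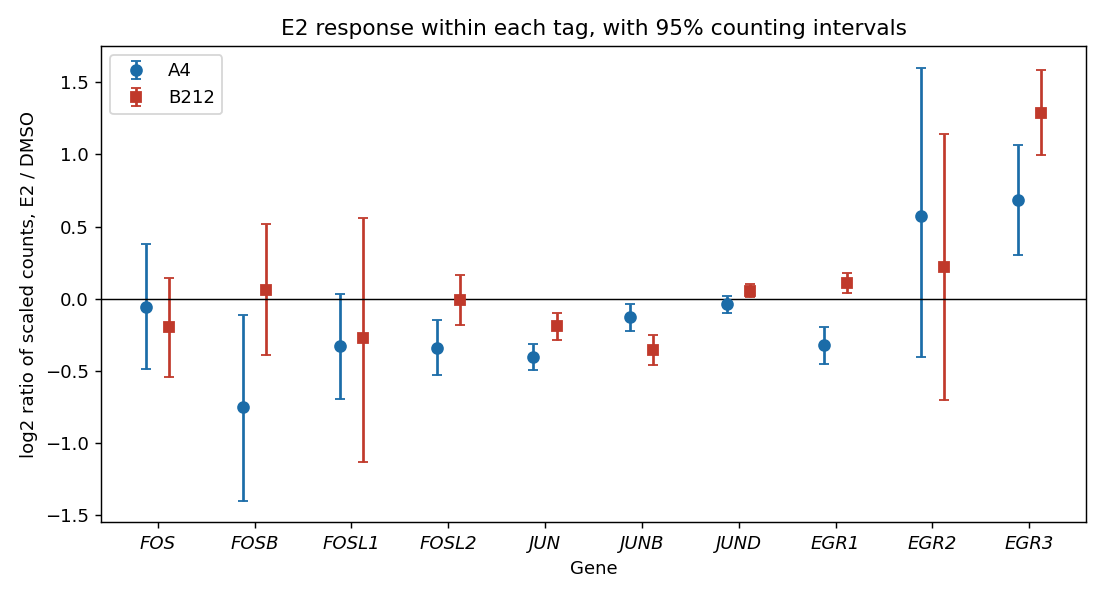
Log2 ratio of scaled counts, E2 over DMSO, within A4 (circles) and B212 (squares), with 95% intervals for counting error only. EGR3 lies above 0 and JUN below 0 in both tags, whereas EGR1 lies on opposite sides.

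Across the 10 genes, 7 had 1 direction in both tags, 5 of them lower and 2 higher, against 70.1% of all genes with a common direction. The E2 and DMSO libraries did not overlap for 3 members (JUN, EGR2 and EGR3), against 25.0% of all genes. The median log2 fold change of the members was -0.15 in either fit, beside -0.0081 for all genes tested. The count with a common direction was at its background, and that without overlap, 3 of 10, was near it. In the same blocked edgeR fit ESR1 itself was lower with E2 (-0.25, adjusted p 0.0330), as were KRT18, PAX8, COL1A1 and VWF among the markers. The ESR1 call was lost with DESeq2 size factors in edgeR (adjusted p 0.0565), DESeq2 (0.0802) and the GC and length trend taken out (0.107). The part of these marker shifts in the results was not tested.

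The other comparison asked how far the tags differed in these genes, with treatment as a covariate. Each tag had 1 DMSO and 1 E2 library, and these stood in for replicates of it. This fit too left 1 residual degree of freedom per gene, so its p-values rest on borrowed spread and speak of these 2 clones. EGR1 was higher in B212 in both treatments, and so were JUND, FOS, FOSB and EGR3, while FOSL1 and JUNB were lower. The edgeR quasi-likelihood test called these 7 of 10 members, 5 higher and 2 lower in B212. Of all genes it called 51.0%, 25.2% higher and 25.8% lower, so the members' share was not far above that of genes in general. The tags did not overlap for 7 members, beside 67.5% of all genes. These were not the same 7 genes. EGR3 was called although its tags overlapped, and FOSL2 was not called although its tags did not. The median absolute log2 fold change of the members was 0.64, beside 0.28 for all genes. Cell type markers differed between the tags too: 6 of 10 epithelial markers were called higher in B212 and both tested stromal markers, COL1A1 and COL3A1, lower. The summed epithelial level was 2343 to 2499 CPM in A4 and 2862 to 3138 CPM in B212, and the summed stromal level 93.4 to 129.2 CPM against 34.8 to 42.6 CPM, nearly all of it COL1A1. COL3A1 had 83 (DMSO) and 72 (E2) counts in A4 against 16 and 14 in B212, and PDGFRB 13 and 7 against 1 and 4. The other stromal markers, DCN and LUM, had 0 counts in B212 and at most 5 in A4. The part of these marker shifts in the tag differences was not tested.

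EGR1 was 3.15-fold higher in B212, a log2 fold change of 1.66 ± 0.097 (SE) with an edgeR adjusted p of 1.99e-11. With no treatment term in edgeR its adjusted p was 3.57e-04. FOSL1 was 5.04-fold lower, at -2.33 ± 0.25 (adjusted p 2.4e-07 by edgeR). JUND was 1.57-fold higher, at 0.65 ± 0.071, with an adjusted p of 2.42e-07 by edgeR. These 3 genes were called under every alternative for the tags that keeps the adjusted p threshold alone, and JUND dropped out where a log2 fold change of 1 or more was also required.

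The others differed less. FOSB was higher by 0.86 ± 0.27 and FOS by 0.63 ± 0.19 on the log2 scale, with edgeR adjusted p-values of 0.0116 and 0.0113. EGR3 was higher by 0.75 ± 0.18 and JUNB was lower, at -0.35 ± 0.088 (edgeR adjusted p 0.00190 and 0.00242). DESeq2 did not call FOS, FOSB or EGR3, with adjusted p-values of 0.165, 0.155 and 0.0560. With no treatment term in edgeR, FOS (0.0503), FOSB (0.0733), JUNB (0.106) and EGR3 (0.203) lost their calls. Without either E2 library, the tag difference fitted for EGR3 was 0.40 and that for FOSB 0.48 on the log2 scale, with no test possible. FOSL2 (0.24 ± 0.12), JUN (-0.18 ± 0.086) and EGR2 (0.14 ± 0.40) did not pass the edgeR test, and FOSL2 passed with library sizes alone as the scaling (0.30, adjusted p 0.0406). The tag difference was larger than the blocked E2 difference for 7 of the 10 genes; the exceptions were JUN, EGR2 and EGR3.

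**Figure D4:**
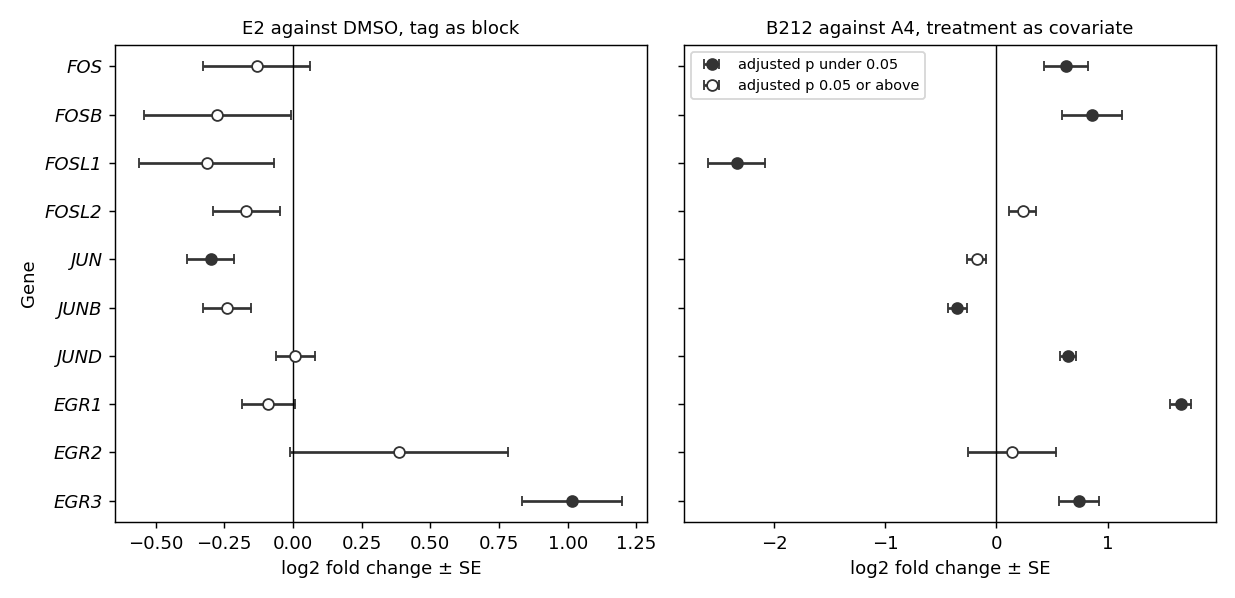
Log2 fold change ± SE of each gene for E2 against DMSO in the blocked fit (left) and for B212 against A4 (right), filled where the edgeR adjusted p is under 0.05; the horizontal scales differ. For E2 only EGR3 and JUN are filled, and for the tags 7 genes are.

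Genes around these factors were read from 6 lists, which share HBEGF and NAB2 between pairs of lists. Of the AP-1 and bZIP partners (14 of 17 tested), the EGR4, WT1, NAB1 and NAB2 list (3 of 4 tested) and the upstream kinases and factors such as SRF and ELK1 (19 of 20 tested), 0 were called for E2 with the block in edgeR, and 0 in any list with no block, where 0 also had an unadjusted p under 0.05. Their medians with the block were 0.049, -0.11 and -0.12.

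Among 42 tested of 43 other immediate early genes, 2 were higher and 2 lower with E2 in the blocked edgeR fit, near the background of 9.56%, with a list median of -0.072. IER5L rose by a log2 fold change of 0.36 ± 0.079 (adjusted p 0.00856 by edgeR), with 3880 and 5143 counts in A4 and 3191 and 3823 in B212. PTGS2, the inducible cyclooxygenase of prostaglandin synthesis, rose by 0.35 ± 0.095, with 783 and 1061 counts in A4 and 1143 and 1309 in B212. ZFP36L1, an RNA-binding protein that hastens decay of AU-rich transcripts, was lower at -0.28 ± 0.069, and PLK2, a polo-like kinase, at -0.30 ± 0.081. PTGS2 and PLK2 were not called with DESeq2 size factors in edgeR (adjusted p 0.0567 and 0.0631), PLK2 not with DESeq2 (0.0540), and PTGS2 not with the trend taken out (0.0902). DESeq2 gave PTGS2 no adjusted p, and 0.205 without independent filtering.

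Of the textbook AP-1 targets, 11 of 18 were tested and 1 was called for E2, CCND1, the cyclin of G1 entry, at -0.25 ± 0.076 (edgeR adjusted p 0.0453 with the block, 0.0691 with DESeq2 size factors, 0.0550 with limma-voom and 0.133 with the trend taken out), with a list median of -0.13. Of 10 tested EGR targets, 1 was higher and 3 were lower, with a list median of -0.092. THBS1, the matrix protein thrombospondin, rose by 0.61 ± 0.094, the A4 counts being 91059 (DMSO) and 130573 (E2) and the B212 counts 32290 and 50710, with an edgeR adjusted p of 9.12e-04. PDGFB was lower at -0.48 ± 0.076, PDGFA at -0.33 ± 0.076 and TGFB1 at -0.25 ± 0.075, each a secreted growth factor (largest edgeR adjusted p 0.0418, that of TGFB1). TGFB1 was not called with the trend removed (0.112), DESeq2 (0.102), limma-voom (0.0514) or DESeq2 size factors (0.0628). The called share of the EGR targets, 4 of 10, stood above the background of 9.56%. The list was chosen with earlier results of these data known, so this excess is not a test of the list. No link between these genes and the members was tested.

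Between the tags, all 9 called AP-1 targets of the 11 tested were lower in B212, with a list median of -1.05 beside 0.0042 for all genes. Of all genes, 25.8% were called lower and 51.0% in either direction. PLAU, the urokinase protease, stood at -1.71 ± 0.11 and the hyaluronan receptor CD44 at -1.13 ± 0.073 (larger edgeR adjusted p of both 8.40e-11). FOSL1 and JUNB were lower and JUND, FOS and FOSB higher in the same tag. With 1 contrast between 2 clones, a relation of the targets to any AP-1 subunit was not tested. This list too was chosen with earlier results of these data known.

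Of the 10 tested EGR targets, 1 was higher (NDRG1, a stress-responsive gene, 0.86 ± 0.15) and 5 were lower in B212, among them THBS1 (-1.46 ± 0.095), PDGFB (-1.29 ± 0.077) and TGFB1 (-0.96 ± 0.075), with a list median of -0.33. Their 6 calls compare with 51.0% of all genes. This was the tag in which EGR1 was higher, but a relation of the targets to any EGR gene or NAB corepressor was not tested. NAB1, an EGR corepressor, was higher in B212 at 0.57 ± 0.071, and WT1, a zinc finger factor with related binding sites, was lower at -1.26 ± 0.13. Of the 42 tested other immediate early genes 9 were higher and 14 lower, close to that background, with DUSP4 (2.00 ± 0.23) and BTG2 (0.83 ± 0.078) among the higher and CCN2, listed as CTGF (-1.88 ± 0.092), PHLDA1 (-1.75 ± 0.10) and DUSP6 (-1.06 ± 0.073) among the lower.

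Of the 14 tested bZIP partners 3 were higher and 4 lower in B212, a share near the 51.0% of all genes. JDP2, a repressor that dimerizes with JUN proteins, stood at 0.61 ± 0.078, and ATF4, the stress response factor, at -0.46 ± 0.073. Of the 19 tested genes of the upstream list 2 were higher and 3 lower, a share below that of all genes, with the JUN kinase MAPK8 at 0.31 ± 0.071 and RPS6KA4 (the kinase MSK2) at -0.88 ± 0.080. Since these are bulk libraries, fewer expressing cells and less RNA per cell cannot be told apart for any of these genes.

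**Figure D5:**
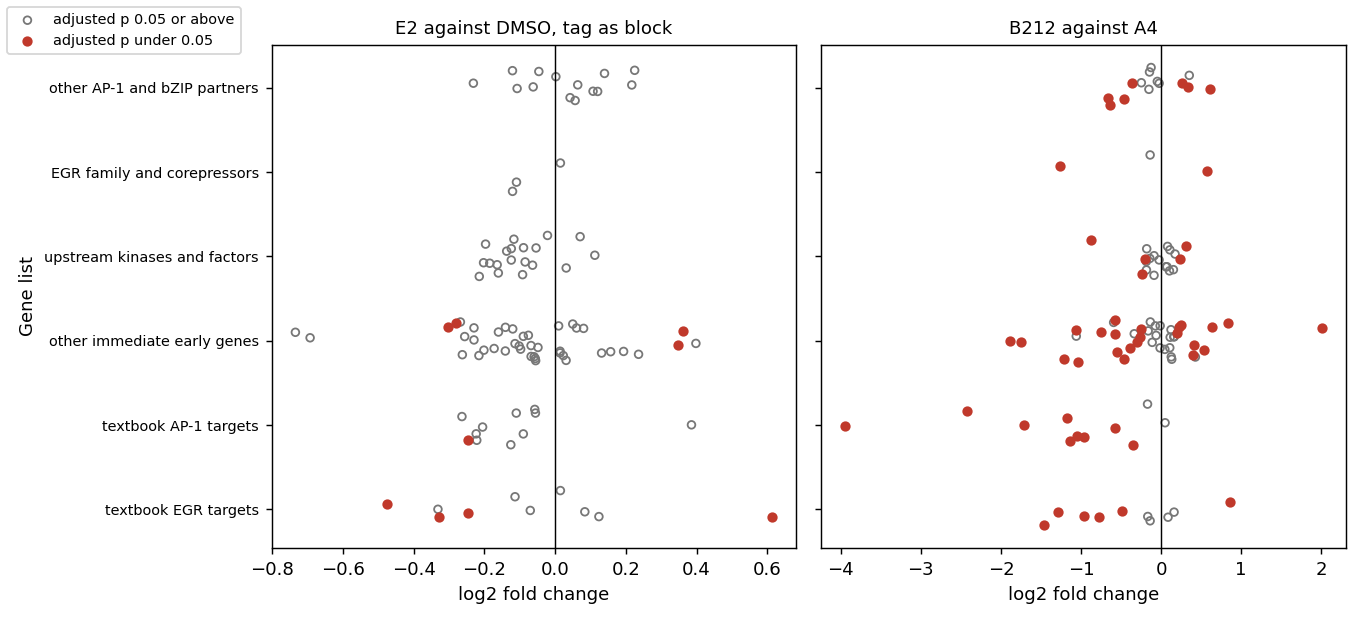
Log2 fold changes of the tested genes of the 6 lists for E2 in the blocked fit (left) and for B212 against A4 (right, on another scale), 1 point per gene, filled where the edgeR adjusted p is under 0.05; vertical jitter within a list has no meaning. For the tags the called AP-1 targets all lie below 0.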

How the data were processed

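The authors deposited raw read counts per gene symbol, whole numbers with a different total per library. The submitters' processing notes name HISAT2, SAMtools, featureCounts and DESeq2 and the build hg19, with no role or version; strand setting and annotation are not given in the sources used here, so antisense or overlapping genes are uncertain. Per the labels, the libraries were poly(A)-selected and stranded. Another 4 columns could be matched to no sample here and were left out.

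Columns were placed in groups by the treatment in their names. The pairing of libraries by tag was taken from the column names. Deviations of same-tag libraries from their group means correlated across genes (r = 0.871). No pair of libraries agreed within sampling noise.

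Genes were kept by filterByExpr (minimum count 10). Counts were scaled by TMM and tested by edgeR 4.0.16 (quasi-likelihood, R 4.3.3) over all 15599 genes, adjusted by Benjamini-Hochberg at 0.05, and read for the members. SEs come from the fold change and F statistic. Within-tag values of members are log2 ratios of scaled counts. Levels per kb used the longest coding GENCODE 29 transcript. Older symbols were matched through a RefSeq gene table. Scripts were tested on simulated counts. Alternatives used DESeq2 1.42.0, limma 3.58.1 and mgcv 1.9.3. Figures used Python 3.11.15 and matplotlib 3.10.9.

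The members and lists were chosen with earlier results of these data known. From each list a rule takes called genes with a mean of at least 50 counts. It allows up to 5 per direction for E2, with 1 direction in both tags, and up to 3 per direction for the tags. For the tags, the text gives only some of these genes. A gene that this rule names is not reported here.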

Additional observations from a re-analysis of the deposited data

Results flagged for a closer look

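For 3 of the 10 genes the E2 difference had 1 sign in A4 and the other in B212, and these differences were not tested because each tag had 1 library per treatment. FOSB had a log2 ratio of -0.75 (A4) against 0.064 (B212), which differ by 0.81, on 36 to 88 counts per library. EGR1 had -0.32 and 0.11, a difference of 0.43. JUND had -0.038 and 0.054, a difference of 0.092. The counting interval excluded 0 in both tags for EGR1, and in A4 but not in B212 for FOSB.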

How the results depend on the processing

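With no block, 0 genes and 0 members were called for E2 under both other scalings, both filters, limma-voom, both stricter thresholds and without any single library, while DESeq2 called 1 gene and 0 members. The replicate block called 1492 genes and 2 members. With the block, DESeq2 size factors gave 717 genes and 1 member, library size only 1686 and 2, no count filter 1770 and 2, a minimum of 10 counts per library 1560 and 2, and limma-voom 1138 and 2. DESeq2 with the block gave 562 and 0, and 389 and 1 without independent filtering, an alternative added after seeing the data. An adjusted p under 0.01 left 415 and 1, a log2 fold change of at least 1 left 49 and 1, and removing the length and GC trend, over the 93.5% of tested genes with a transcript, 610 and 1. Of the called genes, 956 were higher and 536 lower with the block, against 911 and 775 with library size only. The lone member was EGR3 in each case. The cause of these shifts was not tested. Leaving out a library under the block left no residual degrees of freedom.

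The blocked values of EGR1 were negative where the value with no block was 0.0046: -0.089 (also under both stricter thresholds), -0.097 (DESeq2 size factors), -0.11 (library size only and DESeq2 with or without filtering), -0.093 (no filter), -0.094 (at least 10 counts), -0.055 (limma-voom) and -0.019 (trend removed). With no block EGR1 was -0.0049 (DESeq2 size factors), -1.15e-04 (library size only), -0.0092 (no filter), -0.0043 (DESeq2) and -0.15 (limma-voom). JUND became -3.43e-04 with limma-voom and -0.011 with the block and library size only. The cause was not tested.

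Leaving out each library in turn unbalances the tags, and the unblocked log2 fold changes then spanned -0.45 to 0.25 (FOS), -1.01 to 0.27 (FOSB), -1.90 to 1.30 (FOSL1), -0.38 to 0.010 (FOSL2), -0.37 to 0.35 (JUND) and -1.22 to 0.89 (EGR1). Those of PDGFB (-1.29 to 0.30), PDGFA (-0.76 to 0.13), TGFB1 (-0.80 to 0.33), THBS1 (-0.25 to 1.59) and PLK2 (-0.72 to 0.070) also changed sign. JUN (-0.44 to -0.16), JUNB (-0.50 to -0.015), EGR2 (0.23 to 0.56) and EGR3 (0.47 to 1.46) did not. For the tags, EGR2 ranged from -0.057 to 0.33, EGR3 from 0.40 (without either E2 library) to 1.007 (without the A4 DMSO library), FOSB from 0.48 to 1.29 (likewise), FOSL2 from 0.073 to 0.40 and JUN from -0.28 to -0.068.

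The tag comparison called 7 members and 7950 genes. DESeq2 called 4 members (FOSL1, JUNB, JUND and EGR1). A log2 fold change of at least 1 left 2 members and 1723 genes, and no treatment term left 3 (FOSL1, JUND and EGR1) and 4456. With library size only the split of all genes was 4761 higher and 3176 lower, against 3927 and 4023. Counts were low for FOSB (36 to 88 per library), FOSL1 in B212 (31 and 22) and EGR2 (15 to 25).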
